A study of Caenorhabditis elegans with 3 samples.

Results

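The genes described here are 9 members of the small heat shock protein family of the nematode Caenorhabditis elegans that lie outside the main heat-inducible hsp-16 group: hsp-12.1, hsp-12.2, hsp-12.3, hsp-12.6, hsp-16.21, hsp-17, hsp-25, hsp-43 and sip-1. They were taken by gene symbol, as every probe set that the platform annotation assigns to one of these names, which gave 10 of the 22625 probe sets on the array, for 9 of the 17118 genes with a probe set of their own. All 9 genes had a probe set, sip-1 had 2, and none of the 10 was annotated to a further gene.

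RNA came from whole animals of the wild-type strain N2 (Bristol), labelled as first-stage (L1) larvae from a bleach-synchronised culture whose parents were kept at 20 °C on Escherichia coli OP50. There were 3 groups of 1 Affymetrix array each: control larvae with no exposure named, larvae driven through a steel needle held at high voltage (bio-electrospray, which turns a suspension of living animals into a jet of droplets), and the labelled positive control, larvae kept for 24 h at 30 °C. The design asks how far the transcripts of sprayed larvae depart from those of untreated ones, with heat for reference. Values are GCRMA levels on a log2 scale, so a difference of 1 is 2-fold. With 1 array in each group no difference could be set against a spread between replicates and no test was run, and the number of arrays limits the precision. In whole animals, fewer cells of a type and less RNA per cell cannot be told apart. No holding time is given for the other groups, so heat cannot be told apart from the 24 h of time or from a change in larval stage. Differences called after heat below carry this limit.

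Small heat shock proteins share an alpha-crystallin domain and bind unfolding proteins without using ATP, holding them until ATP-dependent chaperones of the HSP70 type can refold them. In the worm the hsp-16 genes are the classic heat-inducible branch, driven by the heat shock factor HSF-1. The genes treated here are more varied. The HSP12 proteins are among the shortest small heat shock proteins known, with little sequence on either side of the domain, and HSP-12.6 was found to be a monomer with little chaperone activity in the test tube. SIP-1 is a chaperone of oocytes and embryos, HSP-25 lies at the dense bodies that attach muscle sarcomeres to the cell membrane, HSP-43 has been described in muscle and reproductive tissue, and HSP-17 can draw unfolding proteins into aggregates.

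On the heat shock array 8 of the 10 probe sets stood at their highest level, 1 (hsp-12.2) at its lowest, and 1 (hsp-12.1) had the same value on all 3 arrays. The share of all probe sets that were highest on that array was not counted. For the second sip-1 probe set the lead over bio-electrospray was only 0.03. It turned to −0.06 under quantile normalization and to −0.002 under median centring. After heat, hsp-17, hsp-43 and hsp-12.3 were at least 2-fold higher than in control larvae, 3 of the 10 probe sets, and no member was 2-fold lower. A probe set was counted where either array of a comparison held it above that array's median, which was so for all 10 here. Of all 11969 probe sets counted this way, 8.71% were 2-fold or more higher and 7.75% 2-fold or more lower. Of the same 11969, 7085 stood at or above their control value. Among the member probe sets 8 were above it, 1 equal and 1 below. The median difference was 0.57 over the 10 probe sets and 0 over all those counted. However, 3 of the 10 (hsp-12.3, hsp-12.6 and hsp-16.21) were counted only through the heat shock array, which favours upward differences. Of the 11969 probe sets 657 entered in that way. Without the filter the medians were 0.57 and −0.02. No member passed the 2-fold mark after bio-electrospray, where 7 of the 10 were above the filter and 0.236% of 11454 probe sets were 2-fold higher and 0.0437% lower.

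**Figure D1:**
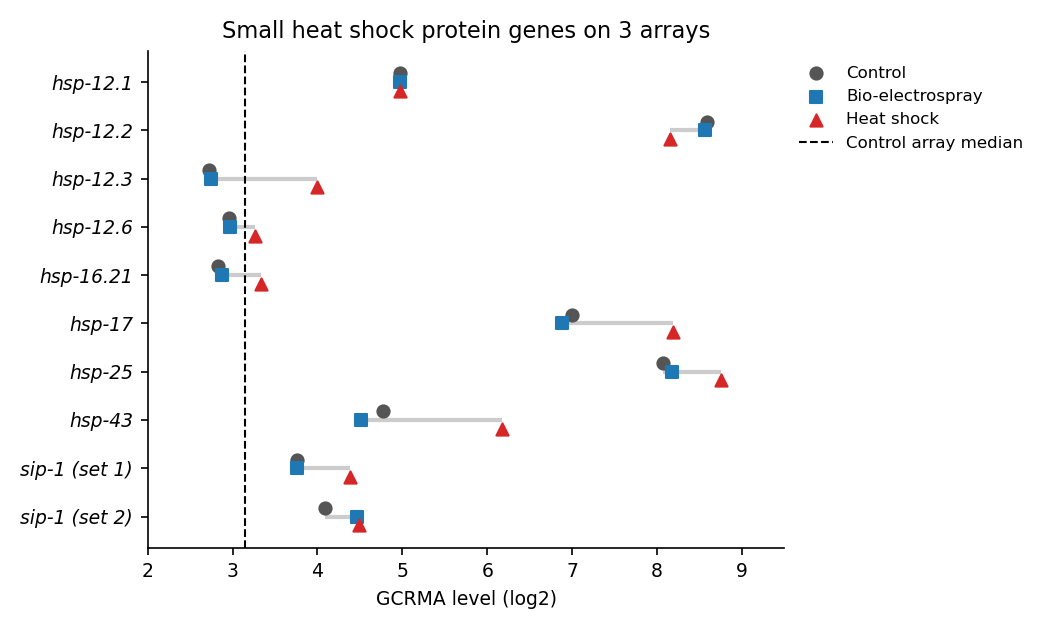
Log2 GCRMA level (horizontal axis) of each of the 10 probe sets on the control (circle), bio-electrospray (square) and heat shock (triangle) arrays, 1 array per group and hence no error bars; the dashed line is the control array median of 3.147. The triangle lies farthest right for 8 probe sets, with the longest spans for hsp-43, hsp-17 and hsp-12.3; hsp-12.3, hsp-12.6 and hsp-16.21 lie left of the line on both unheated arrays.

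The largest heat difference among the members was that of hsp-43. Its level was 4.77 in control larvae, 4.51 in sprayed larvae and 6.17 in heated larvae. The heated larvae thus stood well above both unheated groups, which differed by −0.26 (bio-electrospray minus control). Heat shock exceeded control by 1.40, or 2.64-fold, and 527 of the 11969 probe sets differed by at least as much upwards. Against bio-electrospray the difference was 1.66, or 3.16-fold, the widest of any member in any of the 3 comparisons. The probe set of hsp-43 has a name that marks it as possibly shared between transcripts.

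The aggregation-linked gene hsp-17 showed the same order of arrays. It stood at 6.996 in control larvae, 6.88 in sprayed larvae and 8.18 in heated larvae. All 3 levels lay far above the array medians of 3.147, 3.157 and 3.189, so this difference does not rest on a dim value. Heat shock was higher than control by 1.19, or 2.28-fold, a size that 752 probe sets reached or passed, and higher than bio-electrospray by 1.31, or 2.47-fold.

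The HSP12 genes went different ways. On the control array hsp-12.3 had a level of 2.72 and on the bio-electrospray array one of 2.75, both below the array median, and it reached 4.00 on the heat shock array. It was higher by 1.27 (2.41-fold) against control and by 1.25 (2.37-fold) against bio-electrospray. Because hsp-12.3 entered the count only through its heat shock level, its fold depends on how the background was modelled, and with 16 added to the linear levels the difference from control was 0.50. Of the 657 probe sets that likewise lay above the median on the heat shock array and not on the control array, 42.3% were at least 2-fold higher, as were 41.2% of the 668 in the same position against bio-electrospray.

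The neighbouring gene hsp-12.6 gave smaller differences. In the RefSeq gene table (assembly WBcel235) hsp-12.3 and hsp-12.6 follow each other on chromosome IV with no protein-coding gene between them. Levels of hsp-12.6, a known target of the insulin-pathway transcription factor DAF-16, were 2.95 in control, 2.97 in sprayed and 3.26 in heated larvae. Only the last lay above its array's median, and narrowly. The difference after heat was 0.31, or 1.24-fold.

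The other HSP12 genes did not share in the higher heat shock levels. The level of hsp-12.2 was 8.59 in control, 8.56 in sprayed and 8.15 in heated larvae. It was the 1 member lower after heat, by −0.44 against control (1.35-fold) and by −0.41 against bio-electrospray, at levels far above the array medians. The direction held under quantile normalization, median and loess centring and the offset, and turned to 0.31 when the arrays were centred on the spike-in probe sets. For hsp-12.1 the deposited value was 4.98 on all 3 arrays, identical to the last digit. Exactly equal values on all 3 arrays occurred in 2215 probe sets (9.79%), so this identity is a property shared with many probe sets of the table and gives no size for any change in hsp-12.1.

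**Figure D2:**
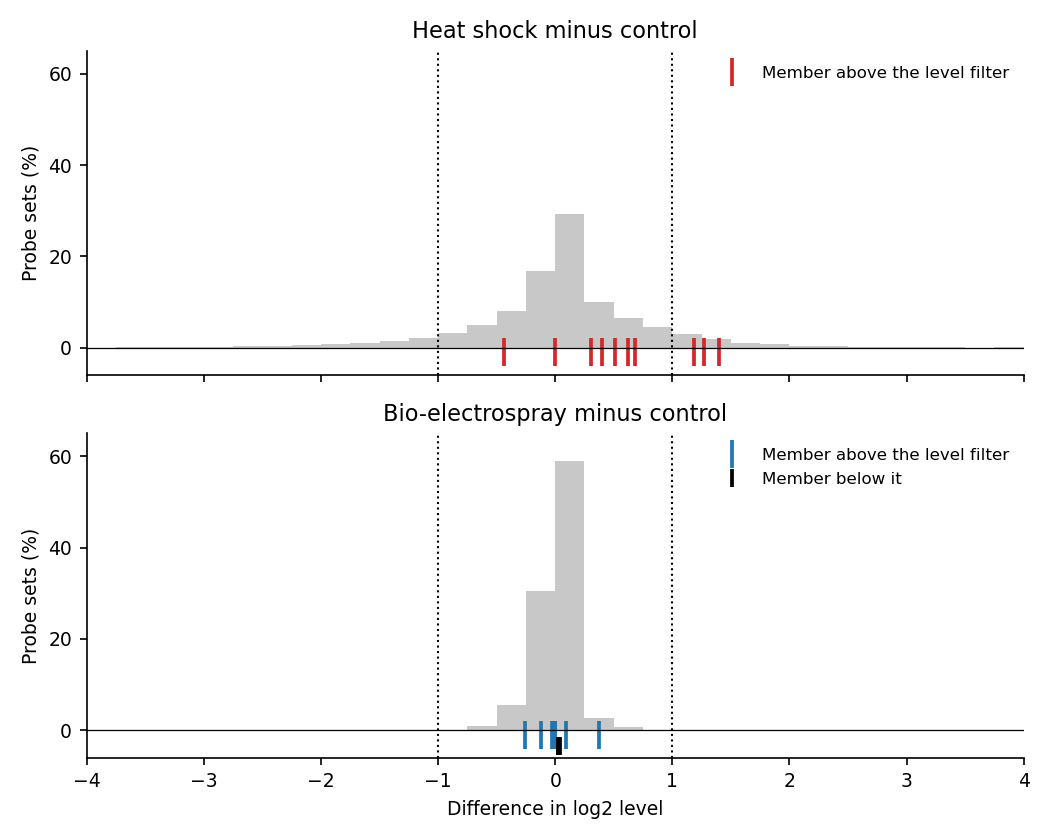
Share of counted probe sets (vertical axis, %) by difference in log2 level in bins of 0.25 (grey bars) for heat shock minus control (upper panel, 51 probe sets beyond a difference of 4 not drawn) and bio-electrospray minus control (lower panel), with the members as ticks under the bars and dotted lines at 2-fold. In the upper panel 3 ticks lie right of the 2-fold line and 1 lies left of 0, while in the lower panel every tick lies inside the 2-fold lines.

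For hsp-16.21 the control and bio-electrospray levels were 2.83 and 2.87, below the array medians, and the heat shock level was 3.34. The difference from control was 0.51, or 1.42-fold, and it too entered the count only through the heated larvae. Next to it on chromosome V in the same gene table lies hsp-16.20, named here after its values were seen, which stayed below the array median throughout at 2.98 in control, 2.99 in sprayed and 2.98 in heated larvae. Neither gene approached the differences of the inducible hsp-16 genes. Heat shock minus control was 6.52 for hsp-16.2 and 6.20 for hsp-16.41, 3.44 for the probe set that hsp-16.1 and hsp-16.11 share, and 3.08 for the one that hsp-16.48 and hsp-16.49 share. The smallest of those 4 values was thus more than the largest member difference, 1.40 for hsp-43.

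**Figure D3:**
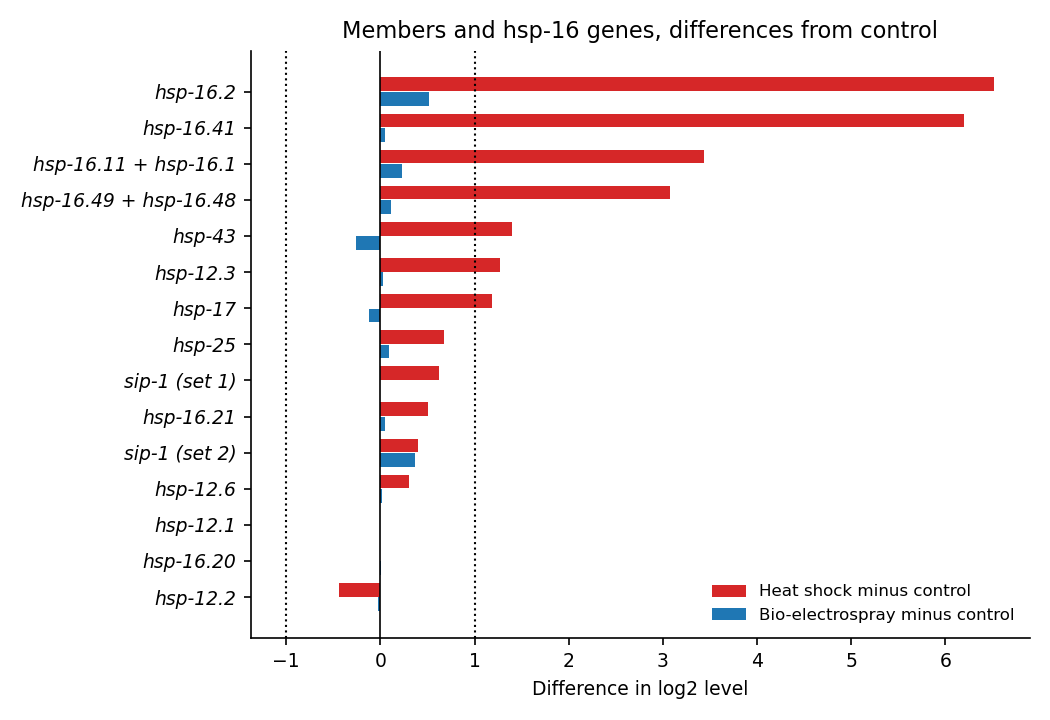
Difference in log2 level from the control array (horizontal axis) after heat shock (red bars) and bio-electrospray (blue bars) for the 10 member probe sets and 5 probe sets of hsp-16 genes, with dotted lines at 2-fold. The 4 inducible hsp-16 probe sets, from 3.08 to 6.52, lie above every member, and hsp-16.20 and hsp-12.1 show no bar that can be seen.

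The muscle chaperone gene hsp-25 was bright in every group, at 8.07 in control, 8.17 in sprayed and 8.75 in heated larvae. It was higher after heat by 0.68 (1.60-fold) and after spraying by 0.10 (1.07-fold), and its probe set too may be shared between transcripts. Of 18 other genes of dense bodies and sarcomeres, all above the filter, none was 2-fold higher after heat and 2 were lower, a share near that of all genes. These were unc-52 (−1.21), which encodes the perlecan of the muscle basement membrane, and atn-1 (−1.16), which encodes alpha-actinin. The integrin beta gene pat-3 was at −0.89 and alp-1, whose product binds alpha-actinin, at −0.70. The median of the 18 was −0.15, against 0 over all 9010 genes counted, of which 8.9% were 2-fold higher and 8.24% lower. The muscle myosin and paramyosin genes unc-54, myo-3 and unc-15 lay at −0.16, 0.47 and −0.07. Under spike-in centring 1 of the 18 was 2-fold higher and none lower, beside 3547 higher and 382 lower of all 11969 probe sets counted.

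The 2 probe sets of sip-1 gave different pictures of spraying. The first stood at 3.76 on the control array, at the identical value on the bio-electrospray array, and at 4.38 on the heat shock array. The second, whose name marks it as possibly shared between transcripts, stood at 4.09, 4.46 and 4.49 in the same order. One probe set therefore placed sprayed larvae with the control and the other placed them with the heated larvae. Exactly equal control and bio-electrospray values occurred in 6303 of the 22625 probe sets (27.9%). The identity in the first probe set thus gives no size for a change on spraying. For heat shock minus control the values were 0.62 and 0.40, which is 1.54-fold and 1.32-fold. For bio-electrospray minus control they were 0 and 0.37.

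The value of 0.37 for sip-1 comes from the second probe set, the one possibly shared between transcripts. It was the 1 member difference that lay outside the middle 95% of bio-electrospray differences, −0.39 to 0.31, and 210 of 11454 probe sets were at least as high. The gap of 0.37 between the sip-1 probe sets was also wide for this comparison, though it is measured from the exactly equal values of the first. Among 1947 genes with 2 probe sets above the filter, the median gap between the brighter 2 was 0.09 and 95% of gaps were under 0.34. For heat shock minus control the sip-1 gap was 0.22, against a median of 0.24 over 2024 genes. Averaged over both probe sets, sip-1 was higher by 0.51 after heat and by 0.19 after spraying. The latter averages 0.37 with the exact tie of the first probe set, so it gives no size for a change on spraying.

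Of 14 genes of the embryo and the maternal germ line, where SIP-1 is known to act, 11 were above the filter. After heat 6 of these were at least 2-fold lower and none higher, against 8.24% lower and 8.9% higher over all genes, and their median was −1.27. The other 5, such as mex-3 (−0.05) and skn-1 (−0.09), stayed under 2-fold. The count was 4 with the offset of 16 and 3 under spike-in centring (median −0.53), and the median over all 14 without the filter was −0.75. Over all 11969 probe sets counted, 519 and 382 were 2-fold lower in those 2 settings. The list was chosen with earlier results of these data known, so its count cannot be set apart from that choice. The RNA-binding protein genes cey-3 (−2.96), cey-2 (−2.58) and gld-1 (−2.34) and the zinc finger gene mex-5 (−1.69) were the lowest. The 6 markers of germ line and embryo are, apart from cpg-2, genes of this same list, so they add little to it. Of these markers 4 were 2-fold lower, and all 6 summed to a linear level of 798 in control, 770 in sprayed and 431 in heated larvae. Most of that sum is glh-1 (9.10 in control, 8.49 in heated larvae), whose difference of −0.61 was under 2-fold. Among the markers pie-1 lay below the median on every array. The part of this shift in the sip-1 values was not tested.

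None of the members reached 2-fold between the bio-electrospray and control arrays. Apart from the second sip-1 probe set, the differences ran from −0.26 for hsp-43 to 0.10 for hsp-25, with hsp-17 at −0.12. The hsp-43 value was low for this comparison, as 10740 of 11454 probe sets were at least as high. The values of hsp-12.2, hsp-12.3, hsp-12.6 and hsp-16.21 were −0.02, 0.02, 0.02 and 0.04, and the last 3 belong to probe sets below the median on both arrays. Over all 10 probe sets 5 were above 0, 3 below and 2 equal, with a median of 0.01. The 2 equal values, of hsp-12.1 and the first sip-1 probe set, give no size for a change. Of the 11454 probe sets counted, 7198 were at or above 0. The hsp-43 and hsp-17 values, downwards here and upwards under heat, both use the same control array as the heat differences.

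Set directly against bio-electrospray, heat gave the same 3 genes past 2-fold. These were hsp-43, hsp-17 and hsp-12.3, while 8.57% of 11980 probe sets were 2-fold higher and 7.26% lower. Further differences were 0.58 for hsp-25, 0.46 for hsp-16.21, 0.29 for hsp-12.6 and 0.62 and 0.03 for the sip-1 probe sets. The median over the members was 0.52 against 0 over all probe sets counted. Here too 3 of the 10 members entered only through the heat shock array, as did 668 of the 11980 probe sets. Without the filter the medians were 0.52 and −0.03.

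Genes listed as regulators of the heat shock response were measured beside the members. Whether they act on the members was not tested. The gene of heat shock factor, hsf-1, had levels of 3.25, 3.28 and 3.80 in control, sprayed and heated larvae, a heat difference of 0.55, and daf-16 had 6.35, 6.24 and 6.60, a difference of 0.25. Of 11 heat shock regulators above the filter 1 was 2-fold higher after heat, the zinc finger gene pqm-1 (1.17), and none was lower, a share near the 8.9% of all genes that were higher. The homeodomain-interacting kinase gene hpk-1 followed with 0.80 and the forkhead gene pha-4 with 0.57. The median of the 11 was 0.25, 5 were 2-fold higher under spike-in centring, and after spraying none was 2-fold apart. Spike-in centring put 3547 of all 11969 probe sets counted 2-fold higher after heat.

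Known DAF-16 targets form a list that holds hsp-12.6 and sip-1. It was chosen with earlier results of these data known, so its counts cannot be set apart from that choice. Of 13 above the filter 5 were 2-fold higher after heat and none lower, with a median of 0.40 against 0 over all genes, of which 8.9% were higher. The higher ones were the metallothionein gene mtl-1 (3.61), the superoxide dismutase gene sod-3 (1.85), the linker histone gene hil-1 (1.69), the ferritin gene ftn-1 (1.64) and dod-3 (1.06), and 4 of these 5 entered only through the heat shock array. Of all 515 genes that entered in that way, 235 were 2-fold higher. The list's count was 1 with the offset of 16 and 9 under spike-in centring. Over all 11969 probe sets counted, 516 and 3547 were 2-fold higher in those settings. The list's own small heat shock genes stayed below 2-fold. A further list held 15 measured genes of the HSP70, HSP90 and HSP110 systems and other factors such as unc-45, chn-1 and cdc-48.1. Of these 1 was 2-fold higher (hsp-70, 3.70) and none lower, with a median of 0, beside 8.9% higher over all genes. The control level of hsp-70, 2.95, lay below the array median, so it entered only through the heat shock array, and 3 of the 15 were higher under spike-in centring. The myosin chaperone gene unc-45 stood at −0.84, cdc-48.1 at −0.65 and chn-1 at 0.51. Of 5 genes of the spermatheca, uterus or vulva above the filter none was 2-fold apart, with the transcription factor gene fos-1 at 0.96, the filamin gene fln-1 at −0.74 and egl-26 at 0.52; under spike-in centring 2 were higher.

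Genes with nearly the same pair of differences from control as the 3 higher members were found by Euclidean distance over those 2 differences among 9069 genes. For hsp-12.3 the nearest were spig-9, T16H12.9 and abf-2 (distances of 0.0023, 0.0086 and 0.0097). For hsp-17 they were C48E7.1, B0294.1 and nlp-21 (0.021, 0.023 and 0.027), and for hsp-43 bath-36, snpc-1.2 and F13D11.4 (0.038, 0.050 and 0.056). As many as 73 genes lay within 0.1 of hsp-12.3, 21 of hsp-17 and 7 of hsp-43, so a likeness over 3 arrays singles out few genes at most for hsp-43.

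The arrays themselves bear on these values. The 18 probe sets for spiked-in hybridization controls, RNA that does not come from the worm, had a median difference from control of −0.53 on the heat shock and −0.19 on the bio-electrospray array. Markers were those of a mixed whole animal, with all 14 muscle, intestine, hypodermis and neuron markers above the control array median. The yolk genes vit-2, vit-5 and vit-6, of the adult intestine, lay below it on every array. The sperm genes msp-36, msp-77 and msp-78, not known as genes of first-stage larvae, stood at 6.24, 5.71 and 6.43 on the control array and were lower by −3.16, −2.70 and −2.99 after heat. After spraying they were lower too, by −0.86, −0.90 and −0.69, and their summed linear level was 214 in control, 123 in sprayed and 27.4 in heated larvae. Of the larval timing genes lin-28 was higher by 1.52 and lep-5 lower by −7.84 after heat, and lin-14 lay below the median on every array. The lep-5 difference was the lowest of all 9010 genes counted. Because lists were chosen with earlier results of these data known, it cannot count as an independent marker. Over the 4 neuron markers the summed linear level was 581, 572 and 1293 in control, sprayed and heated larvae, and over the 4 hypodermis markers 5424, 5381 and 2125. Most of the hypodermis sum is col-12 (12.15 in control, 10.85 in heated larvae), while col-19 was at −0.10. Under spike-in centring 0 of these 4 were 2-fold lower. The sums were 5024, 5037 and 4750 over the muscle markers and 963, 1138 and 668 over the intestine markers. Most of the intestine sum is cpr-1 (9.79 in control, 9.29 in heated larvae), while ges-1 was at −1.38 and elt-2 at −0.13. Differences of the neuron markers after heat ran from 0.69 to 1.85, and 1 of the 4 (egl-21) was 2-fold higher. Whether these shifts in tissue and stage markers take part in the member differences was not tested.

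Under quantile normalization, median centring and loess centring, hsp-43, hsp-17 and hsp-12.3 stayed the members past 2-fold. With the offset of 16 hsp-12.3 dropped out, as given above. Over the 5 alternative scalings and offset hsp-17 ranged from 1.09 to 1.93 and hsp-43 from 1.02 to 2.14 for heat shock minus control. Centring each array on its own median over the spike-in probe sets raised every heat shock minus control difference by 0.74. It put 8 of the 10 member probe sets past 2-fold. Of all 11969 probe sets counted, 3547 were then 2-fold higher, against 1042 as deposited. Subtracting instead the median of the spike-in differences (−0.53), an alternative chosen after seeing the data, put 6 members past 2-fold, beside 2528 of the 11969. Relative to either common shift no difference was altered.

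**Figure D4:**
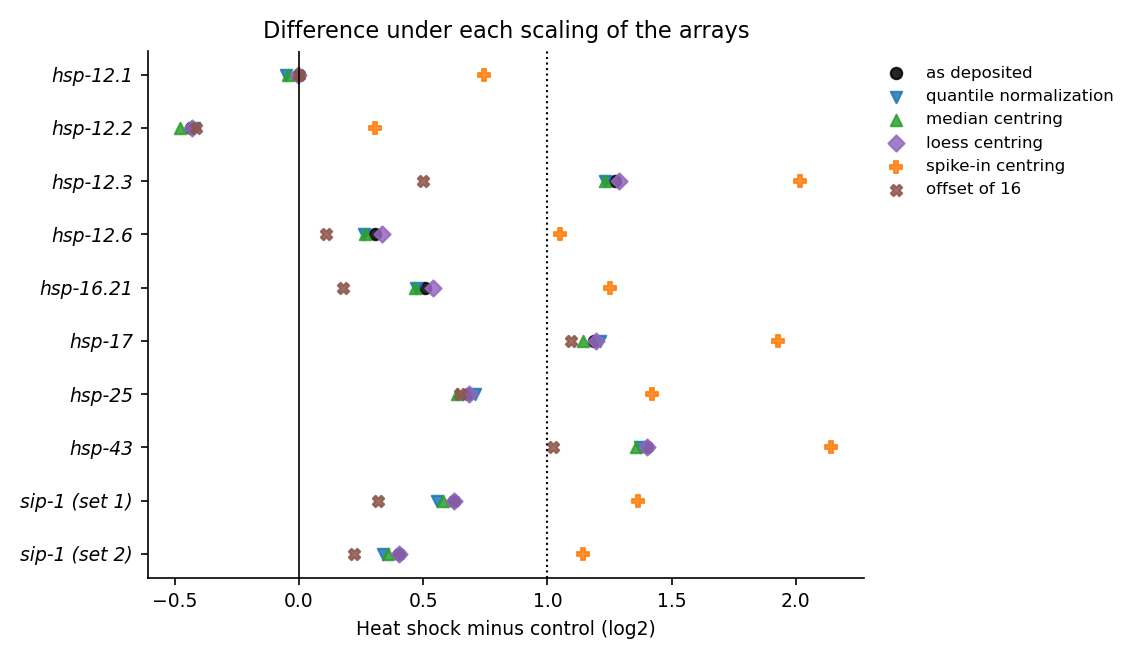
Heat shock minus control difference in log2 level (horizontal axis) of each member probe set as deposited and under 5 alternative settings, with a dotted line at 2-fold. Values under quantile normalization, median centring and loess centring lie close to those deposited, spike-in centring lies 0.74 to the right for every probe set, and an offset of 16 draws the dim genes such as hsp-12.3 towards 0.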

How the data were processed

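The authors deposited log2 levels for each probe set and array, made with GCRMA, per the submitters' processing notes; its version and options are not given in the sources used here. The log2 scale was taken from the range of values, 1.81 to 13.96. Per the labels' protocols, 200 ng of total RNA per sample was amplified, biotin-labelled and hybridized. Scanner files were not used here, so detection calls and depth are unknown.

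Probe sets were named by the platform annotation (20766 with 1 gene symbol, 887 with several, 972 with none), and all 9 genes were found in the RefSeq gene table. Levels were subtracted between arrays for 3 comparisons. The size rule was 2-fold, among probe sets above percentile 50 of at least 1 array compared. Genes of the other lists were represented by their brightest probe set. Named were all members, the hsp-16 genes, hsf-1, daf-16, the up to 4 members of each other list with the largest heat difference, all those 2-fold apart in the DAF-16 list, some tissue and stage markers and the 3 genes nearest in pattern to each member past 2-fold. Members and lists were chosen with earlier results of these data known. The counting step was tested on simulated data.

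Alternatives were quantile normalization, median, loess (span 0.3) and spike-in centring, an offset of 16, other filters (none, percentile 75, both arrays), folds of 1.5 and 3, probe sets not shared between transcripts, the mean over probe sets and, chosen after seeing the data, subtraction of the median spike-in difference. Columns that belong to no sample numbered 0. No sequences of the genes were printed. The software was Python 3.11.15, with matplotlib 3.10.9, statsmodels 0.14.6, pandas 2.3.3 and numpy 2.4.6.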

Additional observations from a re-analysis of the deposited data

How the results depend on the processing

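No paired analysis was possible because each group has 1 array. Of 30 member differences (10 probe sets in 3 comparisons), none changed its side of 2-fold under quantile normalization, median centring or loess centring. With the offset of 16, hsp-12.3 fell below 2-fold, at 0.50 against control and 0.49 against bio-electrospray, and the other 28 kept their side. Spike-in centring, which moved the median of all probe sets by 0.74 for heat shock minus control, 0.51 for heat shock minus bio-electrospray and 0.24 for bio-electrospray minus control, put 7 further differences past 2-fold: against control hsp-12.6 (1.05), hsp-16.21 (1.25), hsp-25 (1.42) and the sip-1 probe sets (1.37 and 1.14), and against bio-electrospray hsp-25 (1.09) and the first sip-1 probe set (1.13). All 7 come from the common shift. Subtracting the median of the spike-in differences instead, chosen after seeing the data, put 3 past it against control: hsp-16.21 (1.04), hsp-25 (1.21) and the first sip-1 probe set (1.16).

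Against 3 members at least 2-fold higher after heat, there were 8 under spike-in centring, 6 with the median spike-in difference subtracted, 5 at a fold of 1.5 and 0 at a fold of 3 relative to control; relative to bio-electrospray there were 5 under spike-in centring and 1 at a fold of 3. Filters at percentile 75 or on both arrays left 2 in each, without hsp-12.3, and leaving out shared probe sets left 2 in each, without hsp-43. The cause of the spike-in offset was not tested.

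Over all probe sets, 1969 were 2-fold apart for heat shock minus control. This became 3929 under spike-in centring (3547 higher and 382 lower, against 1042 and 927), 3004 with the median spike-in difference subtracted (2528 and 476), 1035 with the offset, 3776 and 863 at folds of 1.5 and 3, and 1189 without shared probe sets, where fewer were counted. For bio-electrospray minus control 32 became 13 with the offset, 21 with the filter at percentile 75, 153 and 10 at folds of 1.5 and 3 and 18 without shared probe sets. For heat shock minus bio-electrospray 1897 became 2978 under spike-in centring (2512 higher and 466 lower, against 1027 and 870, and 1993 and 547 with the median spike-in difference subtracted), 966 with the offset, 3767 and 808 at folds of 1.5 and 3 and 1150 without shared probe sets. Signal near the floor limits hsp-12.3, hsp-12.6 and hsp-16.21, whose unheated levels lay below the array medians.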
